A study of Mus musculus with 6 samples.

Results

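The cadherins and protocadherins described here were the rows of the count table whose symbol was Cdh followed by a digit or began with Pcdh. There were 86 such rows among 18560 genes, and 70 of them had at least 50 unique molecular identifiers (UMIs, each marking 1 captured transcript molecule) over the 51426 annotated cells of the olfactory bulb. The 16 rows below this minimum were 9 of the 10 alpha protocadherin rows, 5 of the 22 gamma rows, Pcdhb2 with 38 UMIs and Cdh26 with 6 UMIs. At the minimum itself, Pcdhga4 entered with 51 UMIs and Pcdhgb2 was left out with 48. The members were all 5 type I classical cadherins, all 13 type II classical cadherins, Cdh13 and Cdh23, 4 delta-1, 5 delta-2 and 3 other nonclustered protocadherins, 1 alpha, 20 beta and 17 gamma protocadherins. The alpha member was the row Pcdha11.1 (219 UMIs), and a gamma member was Pcdhga8.1 (873 UMIs). Neither symbol matched an annotated position, and the separate rows Pcdha11 (7 UMIs) and Pcdhga8 (42 UMIs) were below the minimum. The delta-2 and delta-1 protocadherins, 9 genes, held 26.1% and 24.1% of the members' UMIs, the type II and type I cadherins 15.4% and 13.7%, and the beta genes 9.85%.

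Cadherins are transmembrane proteins that join cells in the presence of calcium. Classical cadherins bind the same or a related cadherin on the neighboring cell and attach to actin through catenins, whereas protocadherins lack the catenin-binding tail and act in contact-dependent recognition, repulsion and signaling. The clustered alpha, beta and gamma protocadherins lie in tandem arrays, and neurons choose among them, giving each cell its own surface combination. In the olfactory bulb, members of the superfamily are known for roles in the migration of new neurons, the sorting of sensory axons and the layering of dendrites.

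Single-cell RNA was measured in 6 libraries from whole olfactory bulbs of C57BL/6NJ mice, 14 weeks of age, of both sexes. The 3 groups had 2 libraries each. Control tissue carries no manipulation by its labels, naris occluded tissue came from bulbs deprived of odor input by a nasal plug for 6 weeks, and olfactory trained tissue from mice that discriminated odors for a water reward over 6 weeks. Occlusion was unilateral, and the study's text names the open side as the control, but elsewhere it calls the controls naive. Control and occluded libraries may therefore share mice, which the text does not settle. By the study's text, animals were pooled for these batches of cells; how many is not used here, and p-values below measure only the spread between these libraries, which may be technical. Trained mice were also water deprived, which cannot be told apart from the training.

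The libraries held 6705 to 10570 annotated cells and 11841160 to 17065083 UMIs. The median cell had 1028 UMIs in trained 1 and up to 1724 in occluded 1, and trained 1 also had the highest median share of mitochondrial UMIs, at 14.4% against 9.25% in the lowest library. Between 65 and 144 cell barcodes were shared by any pair of libraries. Levels below are in CPM, the UMIs of a gene for every 1000000 UMIs of the cluster and library, given as mean ± SD over the 6 libraries unless stated otherwise. Only the 3′ end of each molecule was counted, so no gene length enters this scale. On it the members together had 1111 and 1084 CPM in the control, 1078 and 1048 in the occluded and 1136 and 1116 in the trained libraries. Cells were grouped by the deposited annotations, which had 38 clusters of the whole bulb and, in 21746 neurons, 18 neuronal clusters (n01 to n18). As expression itself defined these clusters, differences between them are a description with no test. Cluster numbers are those of the annotation.

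Among neurons, the highest levels of cadherin and protocadherin RNA were in interneuron clusters, though not all of these were high. Sensory neurons and microglia had little. Summed over the 70 members, n18-EPL-IN (interneurons of the external plexiform layer, 161 cells) had 3024 ± 491 CPM, n07-GC-2 (granule cells) 2314 ± 110 and n08-PGC-3 (periglomerular cells) 2259. The mitral and tufted clusters n17-M/TC-3 and n15-M/TC-1 followed at 2051 and 2039, whereas the interneurons of n11-GC-5 and n05-PGC-2 had 1290 and 1253. The immature neurons of n04-Immature had 1134, and the olfactory sensory neurons of n01-OSNs 331 ± 32.3, the lowest of the 18 clusters. In n01-OSNs the median share of mitochondrial UMIs was between 36.9% and 41.8% in each library, against at most 18.7% in a library of n07-GC-2, and its part in the low level was not tested. Outside the neurons, the sum ran from 2089 ± 129 in OPC (oligodendrocyte precursors) and 1923 ± 73.8 in Astro1 (astrocytes) to 1150 in MyOligo (myelinating oligodendrocytes), 907 in OEC1 (olfactory ensheathing cells) and 758 in EC1 (endothelial cells). MicroG2 and MicroG1 (microglia) had 162 and 137 ± 28.9, and the shallower MicroG3 (median depth 748 UMIs) had 286 ± 57.3. The values of members in MicroG2 serve below as a low reference level. Whether they come from free RNA was not tested, and the reference may be too low for shallow clusters.

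**Figure D1:**
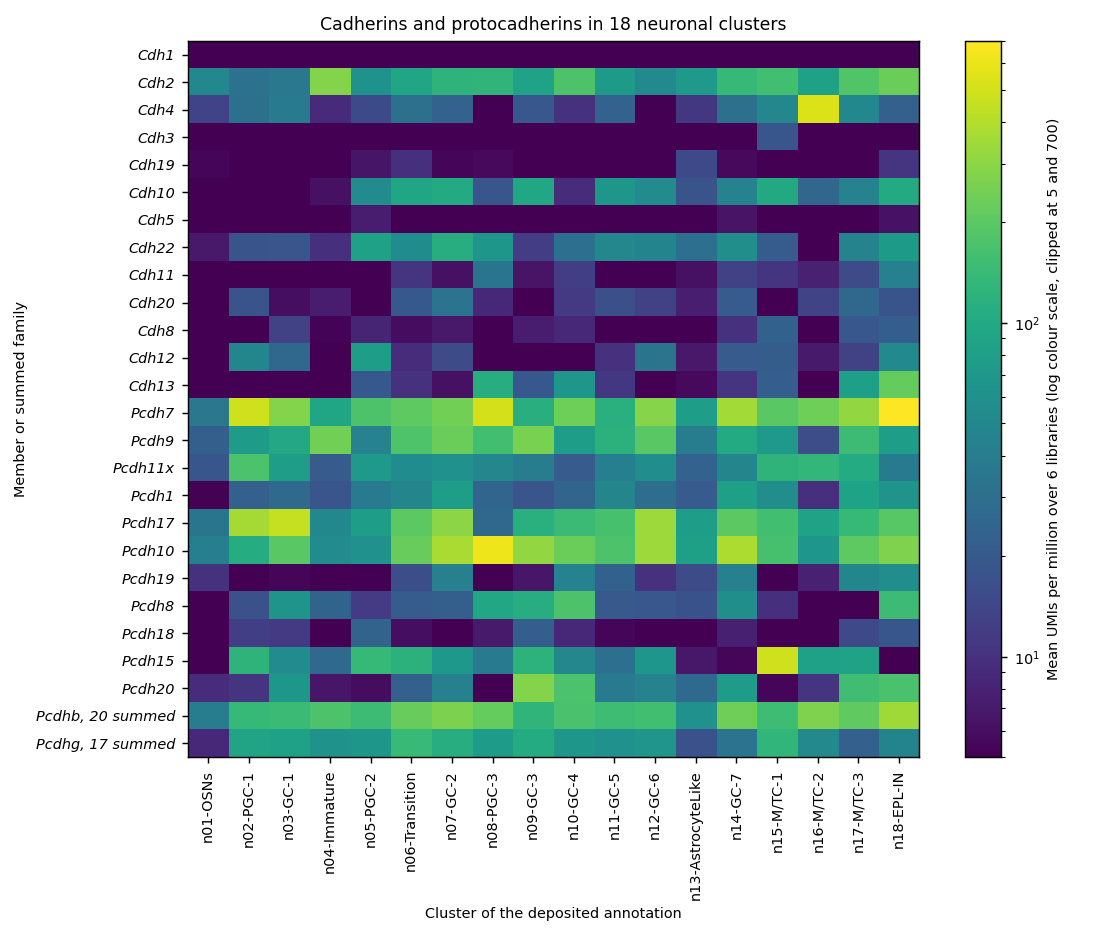
Heat map of the mean level over 6 libraries (CPM, log color scale) of the members with most UMIs, and of the summed beta and gamma protocadherins, in the 18 neuronal clusters. Pcdh7, Pcdh10 or Pcdh17 is the leading member of every cluster but n01-OSNs, n04-Immature, n15-M/TC-1 and n16-M/TC-2, Cdh2 leads n04-Immature at 282, Cdh4 stands out in n16-M/TC-2 at 536 and Pcdh15 in n15-M/TC-1 at 489.

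Among type I cadherins, Cdh2 (N-cadherin) was highest in Astro1 in all 6 libraries, at 419 ± 39.8, with single libraries between 381 and 486. Among neurons it led in n04-Immature at 282 ± 25.1, where the control libraries had 256 and 286, the occluded 252 and 282 and the trained 320 and 295. The next cluster, n18-EPL-IN, had 230 ± 134 and overlapped it, with libraries from 59.8 to 405. The lowest neuronal level was 31.3 ± 13.6 in n02-PGC-1, and MicroG2 had 9.03 ± 4.22. Vascular clusters also had Cdh2, with 162 ± 27.6 in Mural2, where it was the leading member, 109 ± 59.4 in Mural1 and 91.1 ± 29.4 in EC2. Cdh2 UMIs were seen in 50.8% of Astro1 cells and 35.4% of n04-Immature cells against 1.81% of MicroG2 cells, whose median depths were 1851.5, 1668 and 1847 UMIs. At 500 UMIs per cell these shares were 19.0%, 13.2% and 0.354%.

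Cdh4 (R-cadherin) marked a small group of mitral and tufted cells, the output neurons of the bulb. In n16-M/TC-2 (116 cells) it reached 547 and 622 CPM in the control libraries, 532 and 522 in the occluded and 313 and 682 in the trained libraries, a mean of 536 ± 126. Every library of n16-M/TC-2 lay above every library of n17-M/TC-3, the next neuronal cluster, which ranged from 25.2 to 72.6 with a mean of 50.4, and the ratio of the means was 10.6. A Cdh4 UMI was present in 49.1% of n16-M/TC-2 cells (25.9% at 500 UMIs, median depth 1092.5), 5.83% of n17-M/TC-3 cells (2.05%, median depth 865) and 0.796% of MicroG2 cells (0.310%, median depth 1847). Outside neurons Cdh4 was highest in Astro1, at 81.4 ± 17.5.

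Cdh3 (P-cadherin) belonged to ensheathing glia, which wrap the axons of sensory neurons. OEC4 had 43.9 and 52.3 CPM in the control libraries, 47.8 and 48.7 in the occluded and 49.5 and 54.6 in the trained libraries, or 49.5 ± 3.70, and it held 51.5% of all Cdh3 UMIs. OEC5 followed at 33.5 ± 9.86 and overlapped OEC4 in the libraries, since its highest library had 44.8, and OEC1 had only 9.67 ± 4.85. Cdh15 (M-cadherin, 162 UMIs in all) was scarce everywhere, with 14.8 ± 8.49 in n09-GC-3 from 6 UMIs, 13.1 ± 3.67 in n11-GC-5 from 48 UMIs and 11.4 ± 4.0 in the whole-bulb neuronal cluster N10.

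Cdh1 (E-cadherin, the cadherin of epithelia) was confined almost entirely to 1 cluster. Mes2, labeled mesenchymal, held 168 of its 198 UMIs, at 280 and 302 CPM in the control libraries, 172 and 239 in the occluded and 102 and 220 in the trained libraries. Cdh1 was detected in 70 of 230 Mes2 cells (30.4%, or 5.65% at 500 UMIs, median depth 1857.5 UMIs), in 0 of 653 Mes1 cells (median depth 1339), which allows a share of cells with a UMI of up to 0.459% at that depth, and in 2 of 2260 MicroG2 cells (0.0885%, median depth 1847). The 70 cells had a median of 5630.5 UMIs and the other 160 Mes2 cells 1307.5, so the share moved with depth, and a cell without a Cdh1 UMI cannot be taken to lack the RNA. The Mes2 label was checked against 5 mesenchymal markers, whose mean levels were lower in Mes2 than in Mes1. Dcn (decorin) had 390 CPM against 1784, Col1a1 165 against 317, Col1a2 413 against 580, Lum 27.7 against 231 and Igf2 15.1 against 1112, while Cldn11 (claudin 11, of tight junctions) had 1096 and Gja1 (connexin 43) 1257 in Mes2. In CPM pooled over libraries, the 70 cells with a Cdh1 UMI had Dcn at 207 against 746 in the other 160. Igf2 had 6.14 against 29.3, Col1a2 391 against 479 and Cldn11 1282 against 926, while Gja1 was alike at 1228 and 1222. Whether Mes2 mixes cell types was not tested, and the cluster is named here only by its label.

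**Figure D2:**
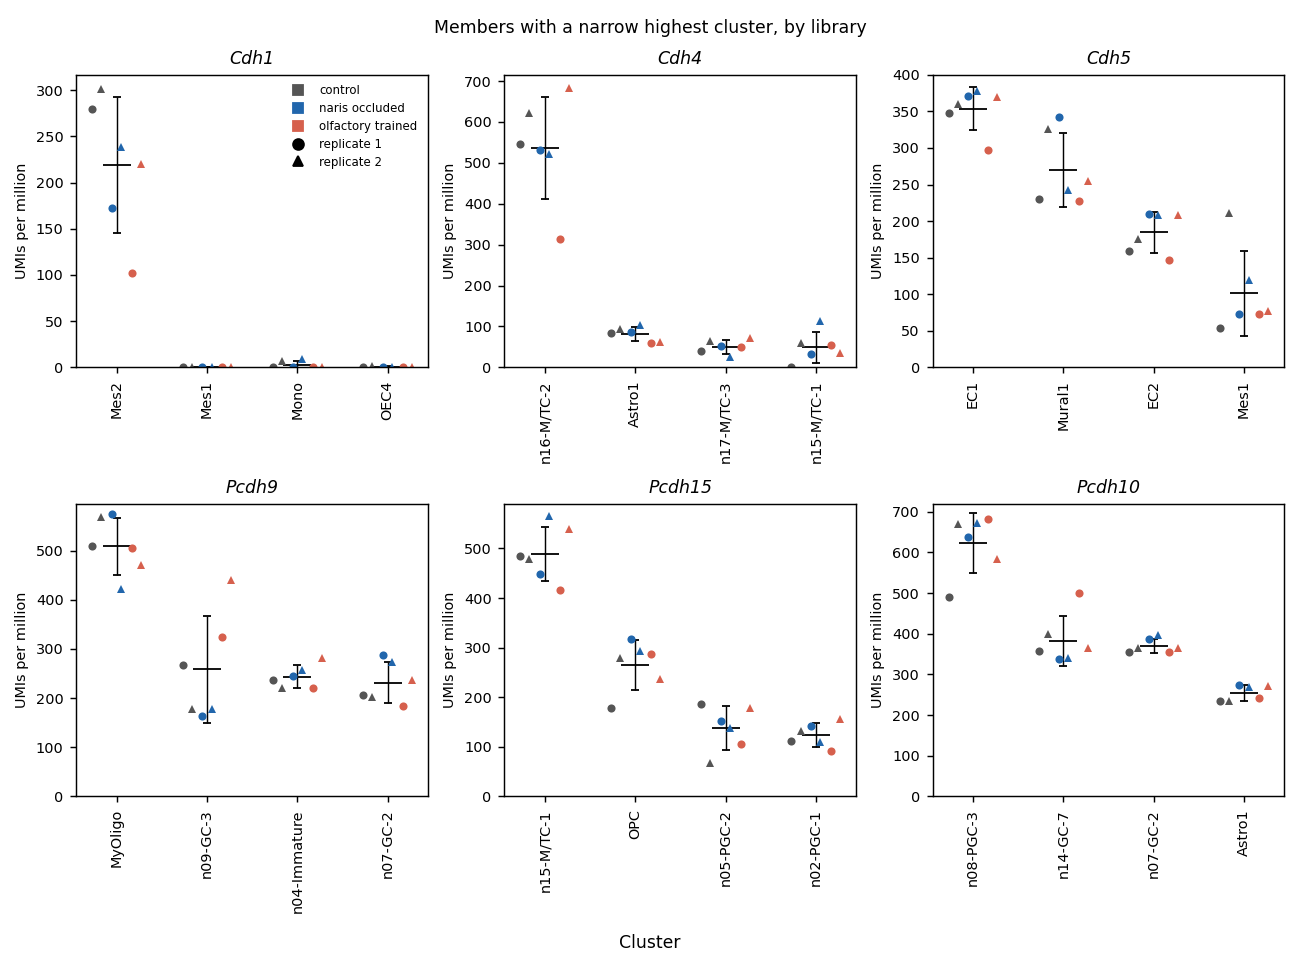
Levels of Cdh1, Cdh4, Cdh5, Pcdh9, Pcdh15 and Pcdh10 (UMIs per 1000000, or CPM, linear axis from 0) in 4 clusters each, with a point for every library, colored by group and shaped by replicate number, and a bar for mean and SD of 6 libraries. Cdh1 in Mes2, Cdh4 in n16-M/TC-2, Pcdh9 in MyOligo, Pcdh15 in n15-M/TC-1 and Pcdh10 in n08-PGC-3 have the highest mean of their panel, and Cdh5 is high in EC1 and Mural1.

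Among type II cadherins, Cdh5 (VE-cadherin, the adhesion molecule of endothelial junctions) was highest in EC1 in all 6 libraries. The libraries had 348, 359, 371, 378, 298 and 369 CPM in the order control 1 and 2, occluded 1 and 2 and trained 1 and 2, a mean of 354 ± 29.4, and EC1 held 64.6% of the Cdh5 UMIs. Of EC1 cells 43.4% had a Cdh5 UMI (16.8% at 500 UMIs, median depth 1621) against 0.398% of MicroG2 cells (0.133%, median depth 1847). Mural1, labeled mural, also had 270 Cdh5 CPM, together with 3465 of the endothelial marker Cldn5 (claudin 5) and 3592 of the pericyte marker Rgs5. The ratio of Cdh5 to Cldn5 was 0.0495 in EC1, 0.0565 in EC2 and 0.0780 in Mural1. It was 0.998 in Mes1 and 2.26 in Mes2, which had Cdh5 with little Cldn5, and 0.000648 in OEC1, which had 3630 of Cldn5 and almost no Cdh5. Pcdh12 (vascular endothelial protocadherin, 71 UMIs in all) was scarce, with 8.34 ± 6.48 in EC1, which nevertheless held 54.9% of its UMIs.

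The other type II cadherins differed in their leading clusters. Cdh19 was highest in OEC1 at 148 ± 23.6, followed by Astro1 at 122 ± 39.0 with overlapping libraries, OEC2 at 76.1 ± 15.96, OEC5 at 65.9 ± 11.2 and OEC4 at 56.6 ± 13.4, and MyOligo had 39.6 ± 12.4. Cdh8 had its highest mean in OEC2 at 36.2 ± 11.4, the highest cluster in 2 of 6 libraries, with OEC4 at 23.2 ± 4.51. Cdh11 (OB-cadherin, of mesenchymal cells) was highest in Mes2 at 152 ± 42.5 against 29.6 ± 12.7 in Mes1. Cdh10 was shared by Astro1 (110 ± 16.1), n07-GC-2 (102 ± 21.0), n18-EPL-IN (102 ± 41.3) and n15-M/TC-1 (101 ± 62.8), which did not differ beyond their spread. Cdh22 had its highest neuronal mean in n07-GC-2 at 108 ± 15.5, the highest cluster in 2 of 6 libraries, with n05-PGC-2 at 84.0 ± 29.0. Cdh20 was low in all neurons, with 32.7 ± 4.71 in n07-GC-2. Cdh12 was highest in n05-PGC-2 at 78.8 ± 22.9, where libraries ran from 50.6 to 110.

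Cdh13 (T-cadherin, which is anchored by a lipid and has no intracellular tail) was led by n18-EPL-IN in all 6 libraries. It had 180 and 190 CPM in the control libraries, 147 and 246 in the occluded and 357 and 175 in the trained libraries, from 39 UMIs in 161 cells. The next neuronal cluster was n08-PGC-3 at 109, and n02-PGC-1, also periglomerular, had 3 UMIs in 1037 cells. Outside neurons Cdh13 was found mainly in OPC, at 96.0 ± 41.9.

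**Figure D3:**
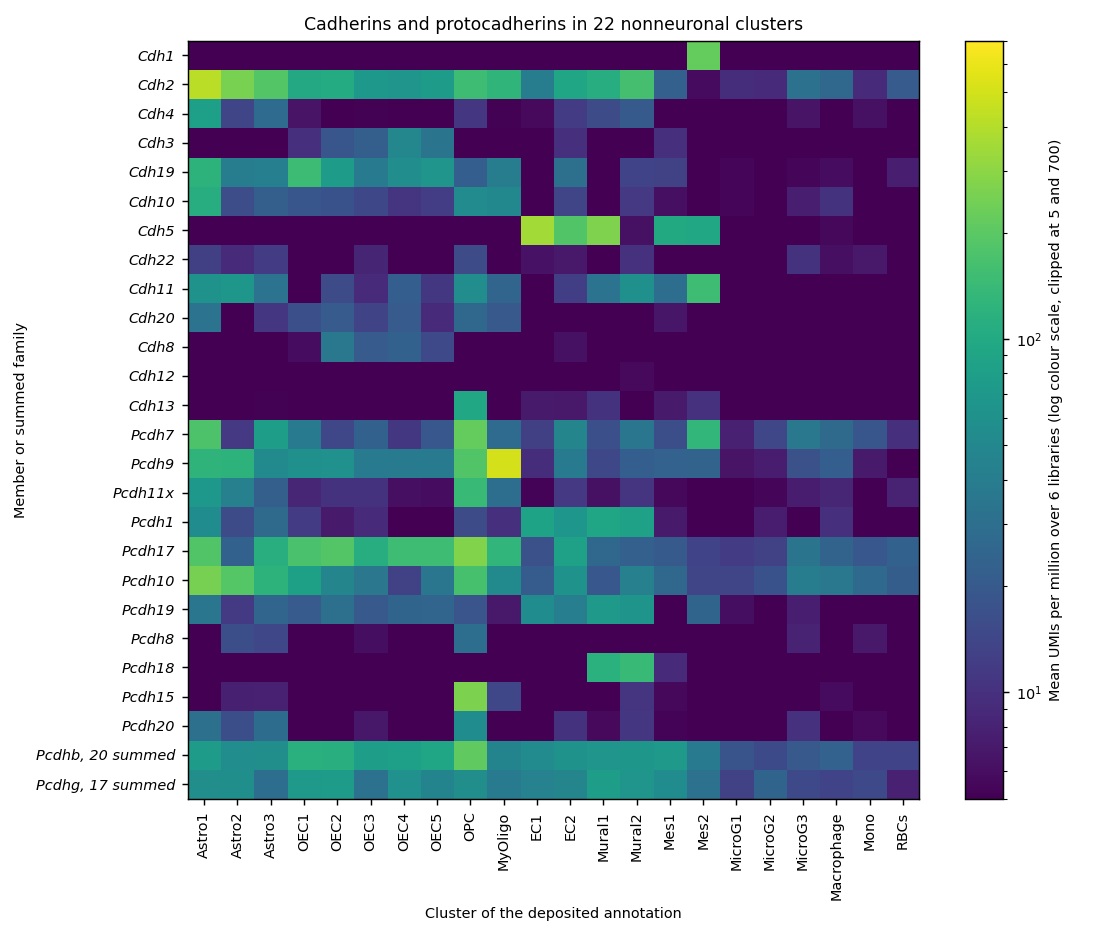
Heat map of the mean level over 6 libraries (CPM, log color scale) of the same members and summed families in the 22 nonneuronal clusters. Cdh5 is high in the endothelial clusters and Mural1, Pcdh9 in MyOligo at 509, Cdh2 in Astro1 at 419, Pcdh18 in both mural clusters and Cdh1 in Mes2, while the microglial columns are dark.

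Delta-1 protocadherins, which have a long extracellular part and a phosphatase-binding motif in the tail, were high in both neurons and the oligodendrocyte lineage. Pcdh7 was the leading member of n02-PGC-1, with 492 ± 28.6 CPM and libraries between 447 and 531. n08-PGC-3 had a similar 510 ± 54.1, where Pcdh10 led. n18-EPL-IN had a higher mean, 704 ± 302, but its libraries ran from 316 to 1104 and so overlapped those of n02-PGC-1. Pcdh9 was highest in MyOligo in all 6 libraries, at 509 and 569 in the control, 574 and 421 in the occluded and 506 and 471 in the trained libraries. The precursor cluster OPC had 182 ± 24.6, and 72.6% of MyOligo cells (21.7% at 500 UMIs, median depth 3322) had a Pcdh9 UMI against 1.5% of MicroG2 cells (0.619%, median depth 1847). Among neurons, Pcdh9 had 258 ± 109 in n09-GC-3 and 243 ± 23.2 in n04-Immature, which did not differ beyond their spread. Pcdh11x had its highest neuronal mean in n02-PGC-1 at 173 ± 32.7, the highest cluster in 2 of 6 libraries, with n16-M/TC-2 at 133 ± 101. In the glia Pcdh11x led in OPC at 140 ± 22.1. Pcdh1 had 111 ± 19.1 in the whole-bulb neuronal cluster N15, 87.7 ± 10.6 in EC1 and 87.2 ± 14.3 in n17-M/TC-3.

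Among delta-2 protocadherins, Pcdh17 was the member with most UMIs (11989). It lies on chr14 (GRCm38, 84443563 to 84537565), between Pcdh8 (79766772 to 79771312) and Pcdh20 (88464743 to 88471396). Pcdh17 was highest among neurons in n03-GC-1 at 458 ± 67.7, with libraries from 393 to 560, and it was the lowest of the 18 clusters in n08-PGC-3 at 26.3 ± 18.6, from 14 UMIs. Pcdh10 had the opposite place in n08-PGC-3, where it was the leading member at 622 ± 74.2 with libraries from 490 to 682, ahead of n14-GC-7 at 383 ± 61.4. Both were among the 3 leading members of n07-GC-2, with 371 ± 17.6 for Pcdh10 and 299 ± 107 for Pcdh17, and of n12-GC-6, with 342 ± 103 and 338 ± 131.

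Outside neurons, Pcdh17 had 276 ± 47.9 in OPC, 184 ± 28.4 in Astro1 and 129 ± 53.6 in MyOligo. It had 151 to 185 in the clusters OEC1, OEC2, OEC4 and OEC5, and Pcdh10 had 255 ± 19.2 in Astro1. Pcdh8 (arcadlin, known as an activity-induced protein of synapses) had its highest neuronal mean in n10-GC-4 at 176 ± 49.8, with n18-EPL-IN at 148 ± 146. Pcdh18 was a vascular member, with 140 ± 27.4 in Mural2 and 117 ± 64.4 in Mural1. Pcdh19 also had its highest nonneuronal mean in Mural1, at 71.1 ± 29.2, near the 65.0 ± 13.4 of Mural2.

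Among the other nonclustered protocadherins, Pcdh15 (known as part of the tip link of inner ear hair cells) was highest in n15-M/TC-1, a cluster of 90 cells. The control libraries had 485 and 478 CPM, the occluded 449 and 566 and the trained 417 and 539. All 6 values lay above the highest library of the next neuronal cluster, n05-PGC-2, at 187. A Pcdh15 UMI was found in 46.7% of n15-M/TC-1 cells (22.2% at 500 UMIs, median depth 1507) and 0.442% of MicroG2 cells (0.133%, median depth 1847). OPC followed outside neurons at 266 ± 50.1. The clusters of mitral and tufted cells thus had different leading cadherins, with Pcdh15 in n15-M/TC-1, Cdh4 in n16-M/TC-2 and Pcdh7 in n17-M/TC-3 (312). Pcdh20 was highest among the neuronal clusters in n09-GC-3 at 280 ± 69.7, followed by n10-GC-4 at 172 ± 60.4, n18-EPL-IN at 168 ± 113 and n17-M/TC-3 at 155 ± 47.4. Over the whole bulb N15 led in all 6 libraries, at 204 ± 35.7. Pcdh20 was close to absent from n04-Immature, at 6.68 ± 2.04, near the 4.64 ± 3.21 of MicroG2.

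Clustered protocadherins were measured with less certainty. All 9 alpha and all 21 gamma genes that matched the annotation overlapped another gene of their array, with ends within 1240 and 1384 bp of each other, and since only 3′ ends were counted, reads of these arrays may be split or lost, and the counts of single alpha and gamma genes are uncertain. None of the 21 beta genes overlapped another beta gene. The 20 beta members summed to 343 ± 97.6 CPM in n18-EPL-IN, 271 ± 112 in n16-M/TC-2, 263 ± 31.2 in n07-GC-2, 176 in n04-Immature, 40.4 in n01-OSNs and 15.2 in MicroG2. OPC had 209 ± 20.9, led by Pcdhb9 at 59.8 ± 10.7, whereas the next nonneuronal cluster, OEC1, had 115 ± 16.1. The 17 gamma members summed to 140 ± 15.3 in n06-Transition, 109 ± 20.6 in n07-GC-2 and 8.85 in n01-OSNs.

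Most cells with a beta UMI in the clusters named here showed a single beta gene at this depth. In n12-GC-6, the median cell had 3533 UMIs and 39.7% of cells had at least 1 beta UMI (6.75% at 500 UMIs per cell). Of the 94 such cells, 27 (28.7%) had UMIs of 2 or more beta genes, and no cell had more than 4. In n07-GC-2, with a median of 882 UMIs, 787 cells (21.8%, or 12.7% at 500 UMIs) had a beta UMI, and 90 of these had 2 or more genes. In the whole-bulb neuronal cluster N11 (median depth 1679), 106 of 329 cells with a beta UMI (32.2%) had 2 or more, with up to 8 in a cell, but N11 also had 1832 CPM of the endothelial marker Cldn5, whose part in these counts was not tested. MicroG2 gave 2.92% (0.841% at 500 UMIs, median depth 1847). The number of beta genes used by a cell was not detectable at this depth.

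Members with at least 500 UMIs were compared by correlation of log2 levels over 40 clusters that share no cells (22 nonneuronal and 18 neuronal). This is a description. All points come from the same 6 libraries and differ in depth. The most alike were beta genes, Pcdhb17 with Pcdhb20 (r = 0.91) and Pcdhb16 with Pcdhb17 (r = 0.88). Among nonclustered members these were Pcdh11x with Pcdh15 (r = 0.82), Pcdh11x with Pcdh7 (r = 0.80), Cdh22 with Pcdh10 (r = 0.79) and Pcdh7 with Pcdh10 (r = 0.79). Pcdh17 was most like Pcdhb7 (r = 0.72), and the least alike were Cdh19 and Pcdh15 (r = -0.45).

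New neurons arrive in the adult bulb throughout life, and the study placed the immature cells of n04-Immature at the start of axis A (8 clusters of periglomerular and granule cells) and axis B (n06-Transition and the granule cells of n07-GC-2 and n09-GC-3). Cdh2 and Pcdh9 were higher in immature cells than on axis A. Cdh2 went from 282 ± 25.1 CPM in n04-Immature to 66.3 ± 4.73 on axis A and 111 ± 19.7 on axis B, with log2 ratios of -2.07 ± 0.14 and -1.35 ± 0.28, lower in 6 of 6 libraries on both axes. Pcdh9 went from 243 ± 23.2 to 105 ± 6.69 on axis A (log2 ratio -1.20 ± 0.12, lower in 6 of 6 libraries) but had 217 ± 40.3 on axis B, where the log2 ratio was -0.18 ± 0.16 and 5 of 6 libraries were lower. Pcdhb7 was also lower in 6 of 6 libraries on both axes, with log2 ratios of -1.26 and -0.65.

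Several other abundant members were higher on the axes. Pcdh17 went from 50.3 ± 11.5 to 271 ± 35.4 on axis A and 257 ± 95.5 on axis B, and Pcdh10 from 54.4 ± 9.32 to 202 ± 21.8 and 318 ± 27.3, each higher in 6 of 6 libraries on both axes. Pcdh7 (log2 ratios 1.51 and 1.25), Pcdh11x (1.86 and 1.48) and Pcdh15 (1.23 and 1.70) were likewise higher in 6 of 6 libraries on both. Some members had few UMIs in immature cells, 44 for Pcdh20, 42 for Cdh10, 62 for Cdh22 and 19 for Cdh12, so only their levels are given. Pcdh20 went from 6.68 ± 2.04 to 42.5 ± 5.60 on axis A and 52.5 ± 5.89 on axis B. Cdh10 went from 6.28 ± 2.31 to 35.0 ± 10.6 on axis A and 101 ± 14.4 on axis B, Cdh22 from 9.71 ± 4.75 to 40.2 ± 3.44 and 84.2 ± 16.5, and Cdh12 from 3.18 ± 3.05 to 27.4 ± 2.70 and 12.8 ± 3.39. Cdh10 and Cdh22 therefore had the higher level on axis B and Cdh12 on axis A. Pcdh8 did not separate, with log2 ratios of 0.61 ± 0.52 and 0.08 ± 0.75. The axis values pool clusters that differ. On axis A, mean Pcdh17 was 458 in n03-GC-1 but 26.3 in n08-PGC-3, below n04-Immature. Pcdh20 was 172 in n10-GC-4 and 3.63 in n08-PGC-3, and Cdh12 was 78.8 in n05-PGC-2 and 0 in n08-PGC-3.

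Over the members with enough UMIs in the neurons compared, 18 of 49 (of 70 in all) were higher than in n04-Immature in all 6 libraries on axis A, where 34.2% of all 11923 genes were, and 3 were lower, where 20.8% of all genes were. On axis B 22 of 44 members were higher and 2 lower, against 37.1% and 27.0% of 11296 genes. The minimum of 50 UMIs was set on immature and axis cells together, so 28 of the 49 members on axis A and 23 of the 44 on axis B entered with under 50 UMIs in n04-Immature. They include 9 of the 18 and 10 of the 22 counted as higher, and nothing is read from these counts. The median depth was 1668 UMIs in n04-Immature and 882 in n07-GC-2. With cells of at least 1000 UMIs only, 18 members were higher on axis A and 20 on axis B. Beyond this, the part of depth in these ratios was not tested.

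**Figure D4:**
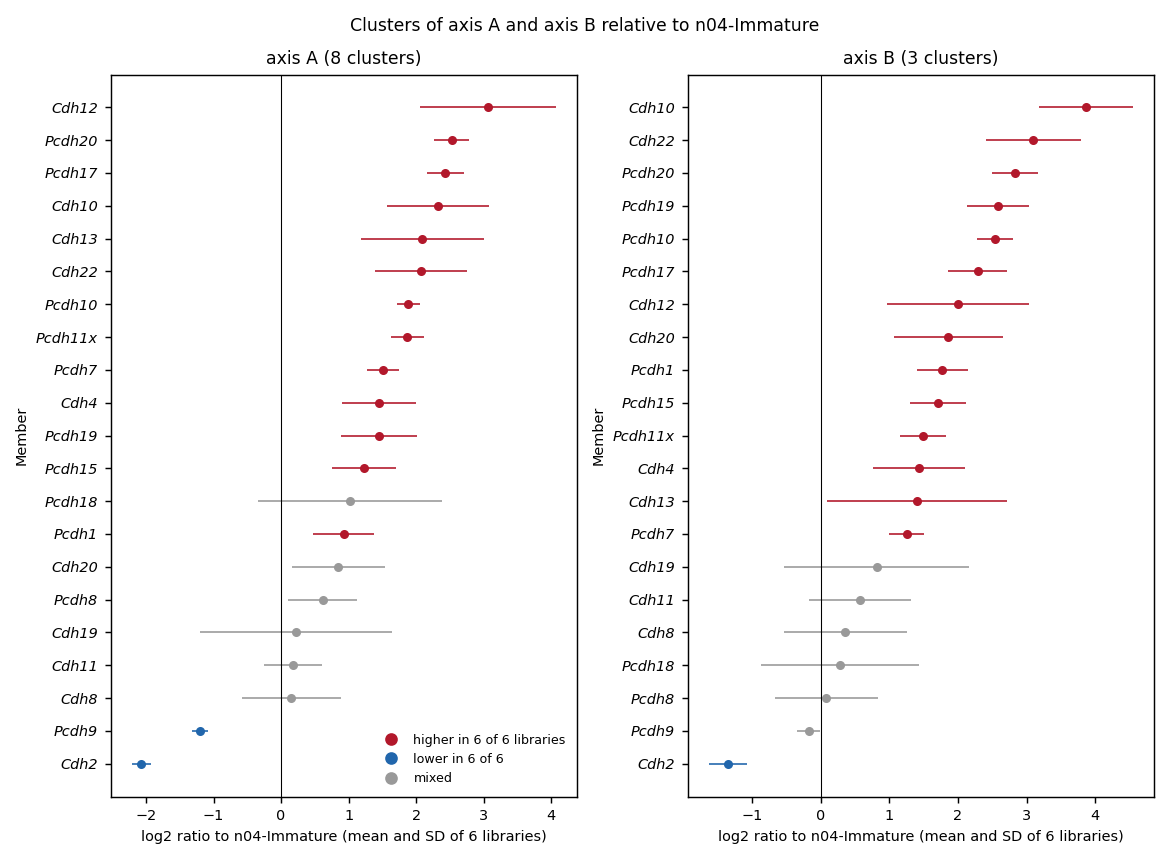
Log2 ratio of the level on axis A (left) and axis B (right) to the level in n04-Immature, with a point for the mean and a line for the SD of 6 libraries (pseudocount 1 CPM), colored by whether all 6 libraries were higher, all 6 were lower or they were mixed. Cdh2 lies at -2.07 and -1.35, Pcdh9 is lower in all 6 libraries on axis A and mixed on axis B, and Pcdh17, Pcdh10 and Pcdh7 are higher in all 6 on both. Cdh10, Cdh12 and Pcdh20 are among the members shown that had under 50 UMIs in n04-Immature.

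Whether 6 weeks of odor deprivation or odor training were accompanied by different levels was tested in 31 clusters with at least 30 cells in every library (12 neuronal and 19 nonneuronal). UMIs were summed per cluster and library and compared with edgeR's quasi-likelihood test, with Benjamini-Hochberg adjustment over all genes of the cluster. With enough counts, 37 members were tested in 302 member and cluster pairs. Since UMIs were summed, fewer cells that express a gene and less RNA per cell cannot be told apart in these tests.

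Most members did not pass the test in any contrast. Between occluded and control, 0 of 302 pairs had an adjusted p under 0.05 with edgeR, beside 0.0644% of all 166109 gene and cluster pairs, and DESeq2 called 0 too. At an unadjusted p under 0.05 there were 29 member pairs with edgeR (9.60%, beside 4.79% of all pairs) and 4 with DESeq2. Between trained and control, 1 pair was called, where 0.0951% of all pairs were, and 25 (8.28%, beside 5.76%) had an unadjusted p under 0.05. Between trained and occluded, 3 pairs were called, where 0.178% of all pairs were, and 32 (10.6%, beside 7.32%) had an unadjusted p under 0.05. With DESeq2, 8 pairs had an unadjusted p under 0.05 between trained and control and 9 between trained and occluded. The median log2 difference of the member pairs was -0.05, 0.01 and 0.04 in these contrasts. The counts depend on single libraries. Without occluded 2, 5 pairs passed between occluded and control, where 0 did with all libraries. The pair called between trained and control was lost without control 1, control 2 or trained 1, and none of the 3 called between trained and occluded passed without trained 1, where 1 other pair did, Pcdh17 in MyOligo (adjusted p = 0.00567 with edgeR), whereas 6 pairs passed without trained 2 and 5 without control 2.

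The 3 pairs called between trained and occluded were all Pcdh17, in granule cells and their transition state, and Pcdh17 was higher in the trained libraries. In n07-GC-2 it had 284 and 293 CPM in the control libraries, 180 and 217 in the occluded and 486 and 333 in the trained libraries. The log2 difference between trained and occluded was 1.11 (SE 0.20, adjusted p = 0.00397), in a cluster where 0.231% of 8217 genes were called. In n11-GC-5 the values were 135 and 167, 102 and 122, and 266 and 206 in the same order, with a log2 difference of 1.09 (SE 0.18, adjusted p = 0.00140), where 0.414% of 8212 genes were called. In n06-Transition they were 183 and 215, 103 and 121, and 355 and 225, with a log2 difference of 1.39 (SE 0.28, adjusted p = 0.00119), where 0.116% of 6048 genes were called. In all 3 clusters both trained libraries lay above both control libraries and both occluded libraries below them, but neither difference from control passed the test. The log2 differences between occluded and control were -0.63, -0.41 and -0.87 in n07-GC-2, n11-GC-5 and n06-Transition, and those between trained and control were 0.48, 0.68 and 0.51.

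**Figure D5:**
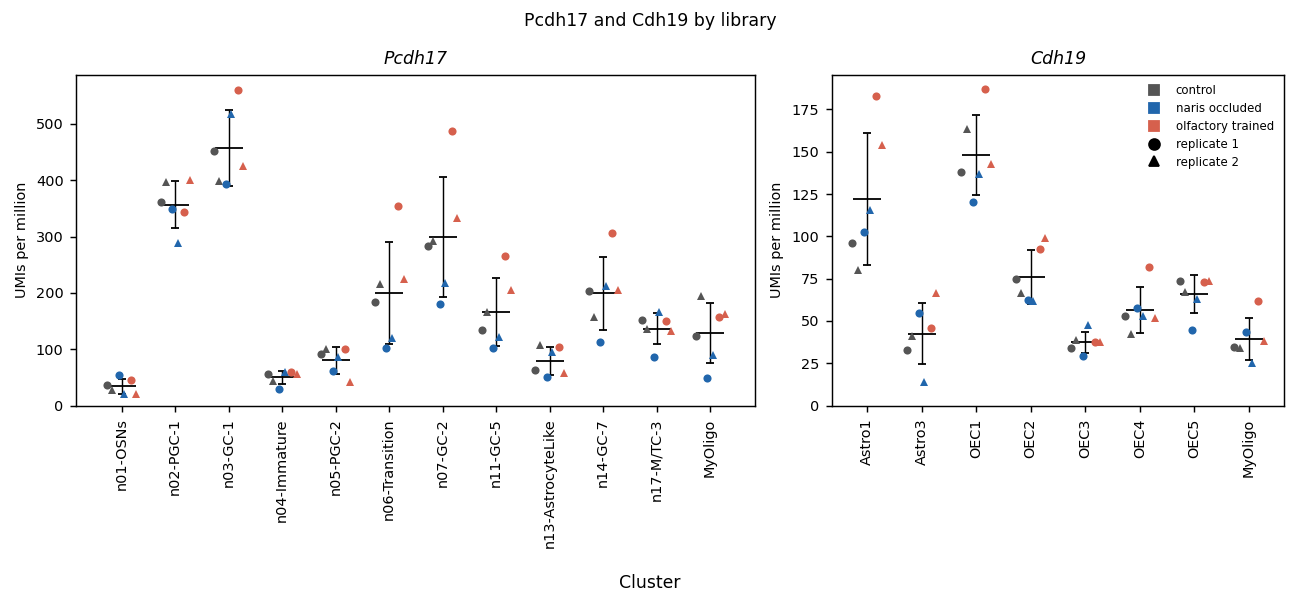
Levels (CPM, linear axis from 0) of Pcdh17 in 11 neuronal clusters and MyOligo (left) and of Cdh19 in 8 nonneuronal clusters (right), with a point for every library, colored by group and shaped by replicate number, and a bar for mean and SD of 6 libraries. In n06-Transition, n07-GC-2 and n11-GC-5 both trained libraries are above both occluded libraries and trained 1 is the highest point, the groups overlap in n03-GC-1, and in Astro1 both trained libraries have the highest Cdh19.

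The size of the Pcdh17 difference rested in part on trained 1. Its median depth was the lowest over all cells and in n11-GC-5 (1891.5 UMIs), but in n07-GC-2 (825) and n06-Transition (726) occluded 2 was lower, at 726 and 645.5. Without it the log2 difference between trained and occluded was 0.81 in n07-GC-2 (adjusted p = 0.196), 0.86 in n11-GC-5 (adjusted p = 0.201) and 0.96 in n06-Transition (adjusted p = 0.350) with edgeR. Without occluded 1 the call was lost in n07-GC-2 (log2 difference 0.99, adjusted p = 0.0624) and n06-Transition (1.30, adjusted p = 0.169), and without occluded 2 in n06-Transition (1.52, adjusted p = 0.109). With cells of at least 1000 UMIs only, the call held in n11-GC-5 (adjusted p = 0.00158) and was lost in n07-GC-2 (log2 difference 0.91, adjusted p = 0.405) and n06-Transition (0.92, adjusted p = 0.969). DESeq2 gave adjusted p = 0.0315, 0.0428 and 0.999 for Pcdh17 in n07-GC-2, n11-GC-5 and n06-Transition.

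The share of cells with a Pcdh17 UMI was highest in both trained libraries of all 3 clusters after each cell was thinned to 500 UMIs. In n07-GC-2 this share was 11.8% and 13.4% in controls, 7.47% and 9.42% in the occluded and 20.4% and 15.9% in the trained libraries (unthinned 21.8%, 22.6%, 15.3%, 15.8%, 29.99% and 24.2%). In n11-GC-5 it was 4.22% and 7.61%, 3.23% and 5.76%, and 11.8% and 9.65%, so occluded 2 lay above control 1 there. In n06-Transition it was 8.12% and 9.79% in controls, 4.40% and 4.72% in the occluded and 14.8% and 10.2% in the trained libraries. MicroG2 had at most 1.46% in any library. Median depths in n07-GC-2 were 936 and 883.5 UMIs in the control, 1019 and 726 in the occluded and 825 and 852.5 in the trained libraries. The occluded libraries thus spanned the others in depth, and both trained libraries were shallower than both control libraries.

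In n03-GC-1, where Pcdh17 is highest, the groups overlapped, with 453 and 398 in the control, 393 and 517 in the occluded and 560 and 425 in the trained libraries and a log2 difference between trained and occluded of 0.13. The log2 ratio of n07-GC-2 to n03-GC-1 was -0.67 and -0.44 in the control, -1.12 and -1.25 in the occluded and -0.20 and -0.35 in the trained libraries. Since n07-GC-2 was chosen for its call between these libraries, the ratio is given with no test. Over the 11 neuronal clusters in which Pcdh17 was tested, the difference between trained and occluded was above 0 in 10, with a median of 0.35, and over 12 nonneuronal clusters it was above 0 in 4, with a median of -0.01. Both trained libraries lay above both occluded libraries in 3 of the 11, which are the clusters with a call, and in 2 of the 12. Over all member and cluster pairs this held for 61 of 302, and the share over all genes was not computed. All clusters share the same libraries, and nothing is read from these counts. In MyOligo, Pcdh17 had 123 and 195 in the control, 48.4 and 89.0 in the occluded and 158 and 162 in the trained libraries, a log2 difference of -1.17 between occluded and control (adjusted p = 0.0928 with edgeR) and 1.19 between trained and occluded (adjusted p = 0.0587).

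Lists of cell type markers were summed in the 3 clusters with a Pcdh17 call. The study reported Dcx as enriched in n06-Transition and took this cluster as likely immature, so immature neuron markers are not foreign to it. Single genes of a list need not follow its sum. The sum of the 5 immature neuron markers (Dcx, Sox11, Cd24a, Igfbpl1 and Tubb3) was lower in both trained than in both occluded libraries in each of the 3 clusters. It was 528 and 581 against 595 and 722 CPM in n07-GC-2, 600.0 and 952 against 1049 and 1131 in n11-GC-5, and 625 and 760 against 865 and 867 in n06-Transition. The sum of the 5 red blood cell markers (4 hemoglobin genes and Alas2) was lower as well. In n07-GC-2 these markers summed to 261 and 162 CPM in controls, 286 and 301 in the occluded and 76.0 and 113 in the trained libraries, and in n06-Transition to 310 and 155, 346 and 263, and 99.1 and 117. In n11-GC-5 they summed to 2873 and 2142 in the occluded libraries, 164 and 71.1 in the control and 49.5 and 62.5 in the trained libraries.

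The sum of ensheathing cell markers was also lower in both trained than in both occluded libraries of these clusters. In n11-GC-5 the trained libraries overlapped the control, and single genes need not follow the sum. Npy, Frzb, Sox10 and Fabp7 summed to 1955 and 1681 CPM in controls, 1685 and 2813 in the occluded and 1599 and 1563 in the trained libraries of n07-GC-2. The sums were 986 and 696, 960 and 866, and 779 and 712 in n11-GC-5, and 2214 and 2134, 2499 and 2574, and 1733 and 1951 in n06-Transition. The oligodendrocyte markers Mag, Mog, Mobp and Cldn11 summed to 327 and 319 CPM in controls, 545 and 521 in the occluded and 416 and 356 in the trained libraries of n06-Transition, between the other groups, and the sums of these 4 genes overlapped in n07-GC-2 and n11-GC-5. Of the sums of all 14 marker lists, 5 were lower in both trained than in both occluded libraries in n07-GC-2, 6 in n11-GC-5 and 7 in n06-Transition, and 1 was higher, that of oligodendrocyte precursors in n11-GC-5. Of the markers of immature neurons, ensheathing cells and red blood cells, Alas2 was at 0 in n06-Transition and no other was at 0 in these clusters. The part of these markers in the Pcdh17 difference was not tested.

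The pair called between trained and control was Cdh19 in Astro1. It had 95.9 and 80.3 CPM in the control libraries, 103 and 115 in the occluded and 183 and 154 in the trained libraries, and the groups did not overlap. The log2 difference between trained and control was 0.92 (SE 0.16, adjusted p = 0.0135), in a cluster where 0.166% of 9623 genes were called, and that between trained and occluded was 0.64 (adjusted p = 0.0938). Without control 1, control 2 or trained 1 the call against control was lost (adjusted p = 0.115, 0.309 and 0.0845), at log2 differences of 1.03, 0.83 and 0.80, and DESeq2 gave adjusted p = 0.140. At 500 UMIs per cell, 6.92% and 6.75% of trained Astro1 cells had a Cdh19 UMI, against 4.29% and 3.28% of control and 3.72% and 5.66% of occluded cells, and at most 0.58% of MicroG2 cells. In OEC1, OEC2, OEC3, OEC4 and OEC5 the log2 differences of Cdh19 between trained and control were 0.11, 0.42, 0.08, 0.47 and 0.02, and none passed the test.

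Cdh19 is also high in ensheathing cells. Marker lists were summed in Astro1 too, and single genes of a list need not follow its sum. Npy, Frzb, Sox10 and Fabp7 summed to 3783 and 3373 CPM in controls, 3221 and 4050 in the occluded and 2673 and 2750 in the trained libraries. The 5 oligodendrocyte precursor markers (Pdgfra, Olig1, Olig2, Cspg4 and C1ql1) summed to 323 and 345, 290 and 310, and 206 and 232, and the red blood cell markers, with Alas2 at 0, to 197 and 62.7, 210 and 667, and 49.99 and 60.9. The 5 astrocyte markers (Aqp4, Aldoc, Slc1a3, Gja1 and Gfap) had 9012 and 9228 in controls, 9855 and 9938 in the occluded and 9917 and 10190 in the trained libraries. Of the sums of the 14 lists, 3 were lower and 1 was higher in both trained than in both control libraries. The part of these markers in the Cdh19 difference was not tested.

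Other members had small unadjusted p-values that did not pass the adjustment. Pcdh7 in n14-GC-7 had 445 and 458 in the control, 395 and 339 in the occluded and 213 and 253 in the trained libraries (log2 difference between trained and control -1.03, adjusted p = 0.187). Cdh4 in Astro1 had 84.1 and 93.5, 86.9 and 103, and 60.0 and 60.9 in the same order (-0.56, adjusted p = 0.452). Pcdh10 in n17-M/TC-3 had 219 and 309, 134 and 192, and 155 and 231 (-0.82 between occluded and control, adjusted p = 0.200). In OPC, Cdh10 had 34.0 and 29.4, 46.3 and 43.2, and 85.0 and 90.6 (1.43 between trained and control, adjusted p = 0.693). Pcdh9 in n09-GC-3 had 267 and 178, 163 and 178, and 325 and 440 (1.20 between trained and occluded, adjusted p = 0.234). In each of these the groups named did not overlap, which was common among the 302 member pairs. Between occluded and control 58 pairs were higher and 64 lower without overlap. These counts were 62 and 57 between trained and control, and 61 and 41 between trained and occluded. How common this is over all genes was not computed. Nothing is therefore read from these counts, and the differences are given as values only.

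Genes that work with cadherins were examined as lists that hold no members. None of 6 catenins in 104 pairs, 12 other cadherin superfamily genes in 112, 7 proteases that cut cadherins in 113 and 9 regulators of the protocadherin arrays in 211 pairs passed edgeR's test in any contrast. Beside 4.79%, 5.76% and 7.32% of all pairs with an unadjusted p under 0.05, the catenins had 1, 7 and 6 pairs between occluded and control, trained and control, and trained and occluded, the other superfamily genes 8, 8 and 7, the proteases 3, 2 and 3 and the regulators 4, 13 and 10, which are 0.962% to 7.14% of each list's pairs. Ctnnb1 (beta-catenin, which binds the tail of classical cadherins) had its highest neuronal level in n04-Immature, 202 ± 26.0, the same cluster as Cdh2, and Ctcf (the insulator protein that loops protocadherin promoters to their enhancer) was also highest there, at 80.4 ± 9.98. Cdhr1 (a cadherin-related protein of mitral and tufted cells) had 2115 ± 267 in n17-M/TC-3 and 754 ± 449 in n16-M/TC-2.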

How the data were processed

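The authors made the UMI counts per gene and barcode with Cell Ranger from Chromium Single Cell 3′ v2 libraries and deposited these counts without normalization; the submitters' processing notes name Cell Ranger 2.0.0, Seurat 2.2.1 and mm10. Annotations deposited with them, from which doublets had been removed, hold each cell's library, cluster and mitochondrial fraction. The table held 52549 barcodes, and those without a cluster were left out. The deposited normalized table was not used.

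Libraries were taken from the annotation's library column, since the barcode starts of the 2 trained libraries are reversed against it. Counts were summed per cluster and library and scaled to 1000000 UMIs of that cluster and library (CPM). Shares of cells were also given after thinning to 500 UMIs. The limit given for a share of 0 (3 cells of the total) covers counting error only. Positions are from RefSeq GRCm38.p6, where 84 of 86 symbols matched.

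Conditions were compared with edgeR 4.0.16 in R 4.3.3 (quasi-likelihood test, TMM factors, filterByExpr, all 6 libraries, adjusted p under 0.05). The fit was also run on counts simulated from edgeR's own model, which cannot show whether that model holds for these libraries. DESeq2, a replicate block, no filter, only the libraries compared, cells of at least 1000 UMIs and leaving out each library were alternatives. For axis ratios the pseudocount was 1 CPM, and members and genes needed 50 UMIs in the neurons compared. Members named are the 6 of each list with most UMIs (at least 500), those whose highest cluster has at least 3 times the next, and pairs called or among the 10 of smallest p in a contrast with the same sign in both replicate numbers. Others were named after their values were seen. The members, lists and cell type markers were chosen with earlier results of these data known. Ensheathing and oligodendrocyte markers were summed over the 4 genes of each list that no other list holds, a choice made after seeing the data, and the full lists are not reported here.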

Additional observations from a re-analysis of the deposited data

How the results depend on the processing

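The number of member and cluster pairs called was small under every alternative. Between occluded and control, 0 were called, and 1 with the replicate block (Pcdh17 in MyOligo, adjusted p = 0.00551 with edgeR), 1 without the filter on low counts and 1 with only the 4 libraries compared. Leaving out single libraries gave 0 to 5. Between trained and control, 1 was called, 0 with DESeq2 and 2 without the filter, with 0 to 1 on leaving out single libraries. Between trained and occluded, 3 were called, 5 without the filter and 1 to 6 on leaving out single libraries, and the replicate block gave 4, adding Pcdh17 in MyOligo (adjusted p = 0.00529 with edgeR). Replicate numbers do not pair the libraries by any label, and deviations of same-numbered libraries had correlations from -0.28 to 0.32 (median 0.093) over 93 comparisons. The cause of these shifts was not tested. Members with the same highest cluster in every library numbered 7 over the whole bulb and 4 over the neuronal clusters. With the 2 control libraries only, which have fewer chances to disagree, they numbered 24 and 17, and with cells of at least 1000 UMIs the neuronal count was 2. The members' sum in n07-GC-2 was 2314 CPM, 3048 when mitochondrially encoded and ribosomal protein genes were left out of the total, which makes the total smaller, and 2186 in the control libraries only. The members higher on axis A and axis B kept counts of 18 to 20 and 22 to 25 on leaving out single libraries. With cells of at least 1000 UMIs these counts were 18 and 20. No value changed direction. Small clusters limit the precision: n15-M/TC-1 had 90 cells, n16-M/TC-2 had 116 and n18-EPL-IN had 161, and these were not tested between conditions, since a library had as few as 6, 8 and 16 of their cells, under the minimum of 30.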
